A study of Ciona robusta with 15 samples.

Results

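The transcripts described here were lower in every library of pooled siphon tissue from regrowth than in any library from the moment of amputation. The mean of the non-regenerating libraries reached at least the lowest library of that moment. The transcripts were chosen by their levels in CPM, counts scaled to a common library total after correction by the trimmed mean of M-values (TMM). The rule asked that the highest of the 9 libraries of days 1, 3 and 8 lie below the lowest of the 3 day 0 libraries, that the day 0 mean reach 1 CPM, and that the mean of the non-regenerating libraries not lie below the lowest day 0 library. It found 35 of the 17745 transcripts in the table. All 35 passed the filter on low counts that left 15328 transcripts for testing.

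The oral siphon of Ciona robusta, a sea squirt, was profiled by sequencing polyadenylated RNA. Siphons taken immediately after amputation (D0) and 1, 3 and 8 days after it (D1, D3 and D8) were compared with each other and with non-regenerating siphons (NR), in 3 libraries per group and 15 in all. Every group came from wild-type siblings about 6 months old, bred from mixed gametes of a pair of adults; a library holds the RNA of 5 pooled tissue samples, so its values average over that pool. The animals chosen for amputation were anaesthetised in MS222. The labels do not say how the NR siphons were handled, and p-values measure the spread between pools, since nothing says that the pools came from separate animals.

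The siphon is the muscular tube through which the animal draws in water, with nerves and pigmented sensory organs at its rim. Tunicates are the closest living relatives of vertebrates, and Ciona is studied because an adult can replace an amputated siphon. During that regrowth, dividing progenitor cells of the branchial sac are known to supply cells to the stump. In bulk tissue, fewer cells of a type and less RNA per cell cannot be told apart.

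The transcripts carry Ensembl identifiers, and the files do not pair them with gene names. None was found in the reference table of 21486 genes (0 of 17745 matched), so members are given by identifier, without roles, positions or sequences, and no pathway lists could be counted. CPM is not scaled for transcript length, so levels are compared here between libraries and not between transcripts. Reads of transcripts that overlap, on the same or on opposite strands, cannot be separated, since the use of strand in the counting is not stated.

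Libraries held 7039611 counts (D3 replicate 1) to 33413013 counts (NR replicate 2). TMM factors were 0.940 to 1.21 in the D0, D1, D3 and D8 libraries and 0.665 to 0.797 in the NR libraries, so scaling raised the NR levels relative to the rest. Across the tested transcripts, 6 of the 15 libraries correlated most with a library of another group. The library labelled D3 replicate 3 correlated most with D0 replicate 1 (Spearman rho 0.977), the library labelled D1 replicate 3 with D8 replicate 2 (0.975), and the library labelled D8 replicate 3 with D1 replicate 2 (0.980). The same held for the libraries labelled NR replicate 1, nearest to D8 replicate 2 (0.923), D1 replicate 2, nearest to D8 replicate 3 (0.980), and D3 replicate 2, nearest to D1 replicate 2 (0.975). Counts of members and of calls are also given without the libraries numbered 3, and the effect of leaving out each library singly is given as ranges.

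Of the 13951 transcripts with a D0 mean of at least 1 CPM, 280 lay lower in all D1, D3 and D8 libraries than in any D0 library, which is 2.01%, and 2.26% lay higher in all of them. The 35 members are 12.5% of those 280. In the other 245, which fell in the same way, the mean of the NR libraries lay below the lowest D0 library. Over all 13951 transcripts the NR mean was not below the lowest D0 library in 60.6%. The rule used these values, and the members' shares are given as a description.

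**Figure D1:**
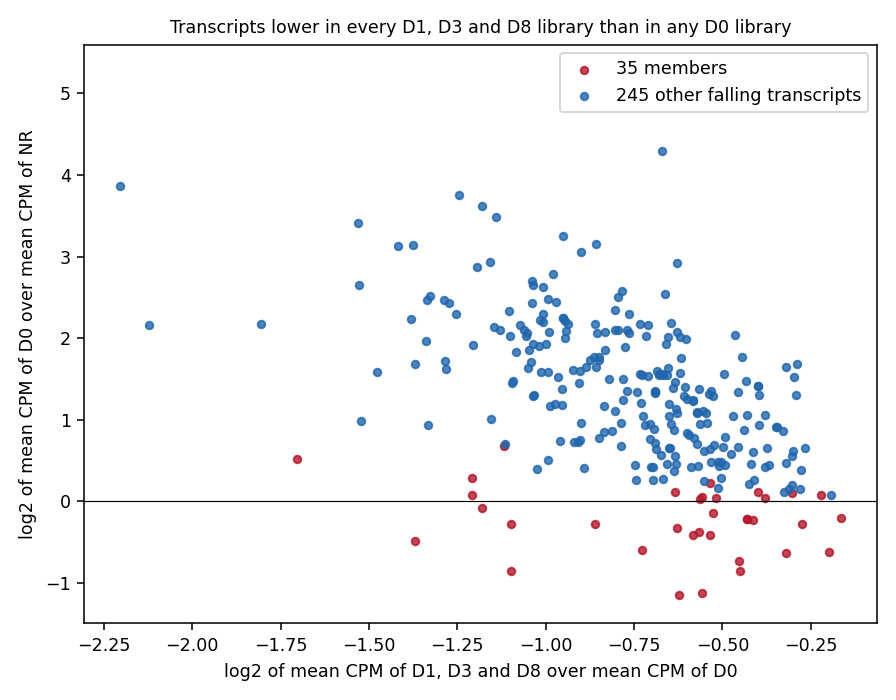
Each point is 1 of the 280 transcripts that were lower in every D1, D3 and D8 library than in any D0 library. The horizontal axis gives the log2 ratio of the mean of D1, D3 and D8 to that of D0 and the vertical axis the log2 ratio of the D0 mean to the NR mean (means of TMM-scaled CPM). The 35 members, in red, lie low on the vertical axis because the rule asks for it, between -1.16 and 0.68.

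The fall was modest in most members. The mean of D1, D3 and D8 stood at a median of 68.0% of the D0 mean over the 35, and ran from 30.7% to 89.2%. In 8 members it was below 50% of the D0 mean, in 18 it was between 50% and 75%, and in 9 it was above 75%. In the other 245 falling transcripts the median was 60.6%. Mean D0 levels of the members ran from 1.54 to 1397 CPM with a median of 24.2 CPM, against a median of 28.2 CPM in the other 245.

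The deepest fall among members with a D0 mean of at least 5 CPM was that of ENSCINT00000023490. It had 9.67, 11.9 and 20.8 CPM in the D0 libraries, 8.01, 3.78 and 2.40 at D1, 2.0, 7.02 and 8.23 at D3, 1.44, 1.24 and 4.84 at D8, and 7.40, 7.47 and 14.6 in NR. The D0 libraries differed more than 2-fold among themselves, NR replicates 1 and 2 lay within the range of the regrowth libraries, and NR replicate 3 lay within that of D0. Its fitted log2 fold change for the mean of D1, D3 and D8 against D0 was -1.77 ± 0.458 (SE; adjusted p = 0.160 in edgeR). The adjusted p was 0.0209 in DESeq2, and in edgeR 0.0144 without replicate 3 of D1, D3 and D8 and 0.0257 without the libraries numbered 3 of every group.

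ENSCINT00000032931 had the next deepest fall among these members and the second highest D0 mean in CPM. Its libraries held 281, 226 and 203 CPM at D0, 193, 146 and 45.0 at D1, 83.1, 65.0 and 194 at D3, 27.6, 41.1 and 126 at D8, and 62.4, 128 and 486 in NR. The libraries within each later group were far apart: D1 replicate 3 was the low one at D1, D3 replicate 3 and D8 replicate 3 were the high ones of their days, and NR replicate 3 alone lifted the NR mean above the lowest D0 library. The fitted log2 fold change against D0 was -1.26 ± 0.578 (SE; adjusted p = 0.332 in edgeR). Without the libraries numbered 3 of every group it was -1.74 (adjusted p = 0.00364 in edgeR).

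The smallest falls were those of ENSCINT00000011693 and ENSCINT00000018446. ENSCINT00000011693, also the member with the highest CPM, had 1398, 1389 and 1405 CPM at D0, 1276, 1204 and 890 at D1, 1370.5, 1088 and 1349 at D3, 1375, 1293 and 1378 at D8, and 2107, 1513 and 1227 in NR. Its D0 libraries agreed closely (SD 7.76 CPM), so that D8 replicate 3 at 1378 CPM counted as lower although the D8 mean was 1349 ± 48.3 CPM against 1397 ± 7.76 CPM at D0 (SD, n = 3 each). ENSCINT00000018446 had 28.7, 27.1 and 26.9 CPM at D0 and between 22.5 and 26.0 CPM in the 9 libraries of D1, D3 and D8. Its NR libraries, at 37.1, 44.5 and 45.5 CPM, were all above D0.

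**Figure D2:**
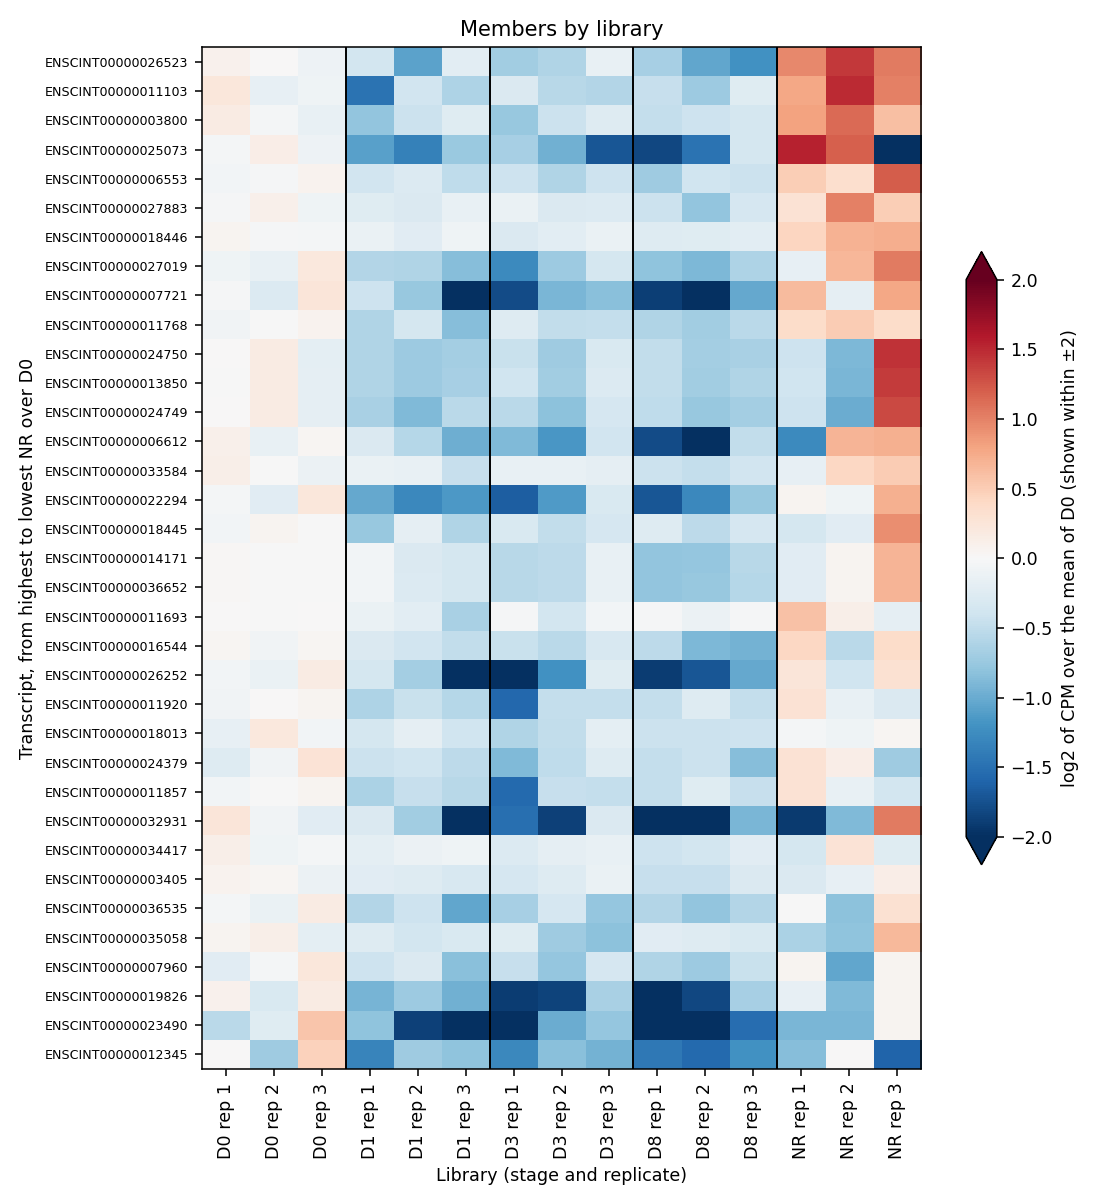
Each row is a member and each column a library; colour gives the log2 ratio of its CPM to its D0 mean, shown within ±2. Blue cells fill the columns of D1, D3 and D8 in every row, as the rule asks, while the NR columns are mixed, and the column of NR replicate 3 is the reddest in the middle rows.

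The members sat close to the limits of the rule. The lowest D0 library exceeded the highest regrowth library by a median factor of 1.07 and at most by 1.27, and by less than 1.05 in 16 of the 35. The gap was as narrow in the other 245 falling transcripts, with a median factor of 1.07 and less than 1.05 in 98. ENSCINT00000034417 lay just inside, with 195.28 CPM in its highest regrowth library against 195.36 CPM in its lowest D0 library, and ENSCINT00000032711 just outside, with 2.0863 against 2.0856 CPM. For the NR limit, ENSCINT00000007960 lay just inside with a D0 minimum of 19.80 CPM against an NR mean of 19.84, and ENSCINT00000024968 just outside with 24.63 against 24.21 CPM. The limit on the D0 mean decided little: the lowest member, ENSCINT00000007721, had 1.54 CPM, and the nearest transcript under the limit that met the other conditions, ENSCINT00000019643, had 0.503 CPM.

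The smallest count of any member in any library was 3, in ENSCINT00000007721 in D1 replicate 3 and D3 replicate 1 and in ENSCINT00000026252, named after its values were seen, in D3 replicate 1, while the median over members of the lowest count was 134. The median coefficient of variation between replicates of the members was 10.4% at D0, 11.1% at D1, 16.4% at D3, 9.79% at D8 and 33.1% in NR. Over all transcripts with a D0 mean of at least 1 CPM these medians were 19.3%, 20.7%, 23.1%, 20.5% and 30.3%. In the other 245 falling transcripts, which met the same condition of no overlap, they were 8.80%, 20.4%, 21.1%, 28.3% and 41.1%. The spread at D0 was thus low in both sets, and that at D1, D3 and D8 in the members alone. The reason for the low spread was not tested.

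Some members are not separate signals. Of the 595 pairs of members, 5 kept a nearly constant ratio of counts in all 15 libraries (SD of the log2 ratio under 0.1). ENSCINT00000014171 and ENSCINT00000036652 had counts in ratios of 0.991 to 1.01, ENSCINT00000011920 and ENSCINT00000011857 of 0.995 to 1.07, and ENSCINT00000013850, ENSCINT00000024750 and ENSCINT00000024749 formed a trio. Whether they share reads was not tested. With each of these 3 groups counted once, 31 signals remained, with a median log2 ratio of the regrowth mean to the D0 mean of -0.54, against -0.56 over the 35 members.

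When D1, D3 and D8 were each set against D0 in edgeR, no member passed an adjusted p of 0.05 in the lower direction, beside 0.0130%, 0.00% and 0.00% of all tested transcripts. At an unadjusted p under 0.05, 8 members were lower at D1, 10 at D3 and 21 at D8, where 4.37%, 1.83% and 6.02% of all tested transcripts were. The rule used these contrasts, so the counts describe the members and are not read as tests. The median log2 fold changes of the members were -0.54, -0.47 and -0.59 at D1, D3 and D8, against 0.04, 0.02 and 0.02 over all tested transcripts. For the mean of D1, D3 and D8 against D0, 0 members passed the adjusted threshold, where 0.0130% of all did, and the median was -0.55.

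DESeq2 called 1 member lower at D1, ENSCINT00000011768, and 5 at D8, ENSCINT00000011768, ENSCINT00000012345, ENSCINT00000022294, ENSCINT00000023490 and ENSCINT00000026523; of these, ENSCINT00000022294 was named after its values were seen. Over all tested transcripts DESeq2 called 0.274% lower at D1 and 0.992% at D8. Without replicate 3 of D1, D3 and D8, edgeR called 1 member lower at D3, ENSCINT00000019826, and 5 at D8, ENSCINT00000006612, ENSCINT00000007721, ENSCINT00000019826, ENSCINT00000022294 and ENSCINT00000023490, of which the first was also named after its values were seen. In that fit 0.791% of all tested transcripts were called lower at D3 and 3.13% at D8.

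**Figure D3:**
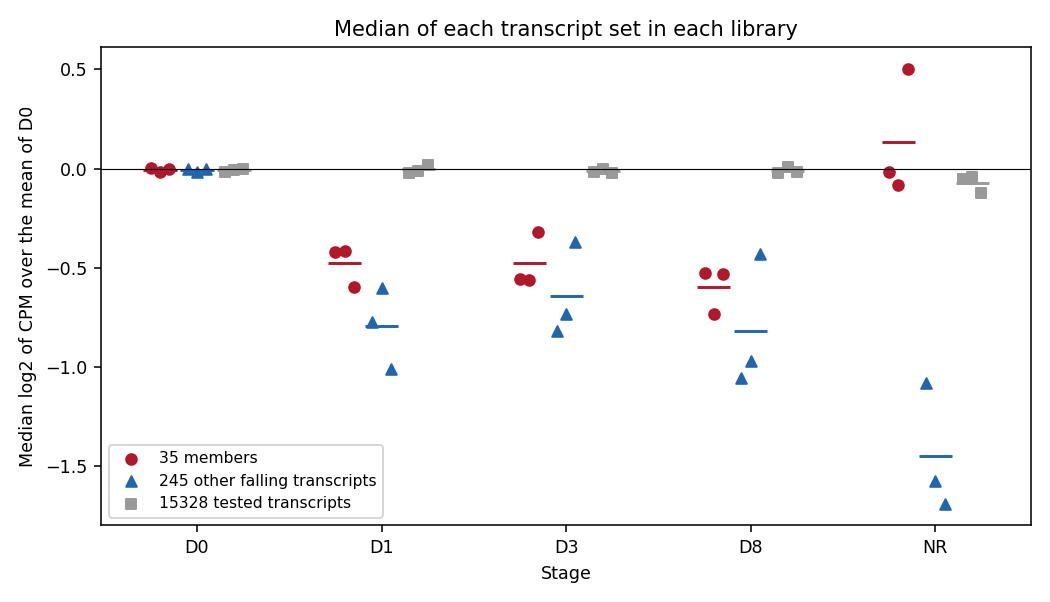
Points give, for each library, the median over a set of transcripts of the log2 ratio of CPM (plus 0.1) to the D0 mean (plus 0.1), and lines the mean of the 3 libraries of a stage. The members stood at -0.48 ± 0.10, -0.48 ± 0.14 and -0.60 ± 0.12 at D1, D3 and D8 (SD, n = 3 each) and at 0.13 ± 0.32 in NR, where the other 245 falling transcripts stood at -1.45 ± 0.32.

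The stages of regrowth were also compared with each other. The rule does not use the order of D1, D3 and D8, but it holds every library of these days below the lowest D0 library. The values compared here thus took part in the choice. The calls and shares of the members beside those of all tested transcripts are therefore a description. None of the 35 members passed in edgeR in any of the 3 comparisons, with lowest adjusted p-values of 0.999 for D3 against D1, 1.00 for D8 against D3 and 1.00 for D8 against D1. In each of these comparisons 0.00% of all tested transcripts passed. At an unadjusted p under 0.05 there were 0, 0 and 1 members in the same order, where 2.99%, 2.99% and 1.45% of all tested transcripts were, and DESeq2 and limma voom called 0 members in each. The median log2 fold changes of the members were -0.04 for D3 against D1, -0.12 for D8 against D3 and -0.11 for D8 against D1, beside 0.02, -0.01 and 0.00 over all tested transcripts.

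Of the 3 regrowth stages, D1 held the lowest mean in 8 members, D3 in 3 and D8 in 24, or 68.6%. D8 was the lowest in 45.7% of the other 245 falling transcripts and in 33.8% of all transcripts with a D0 mean of at least 1 CPM. With constant-ratio groups counted once, D8 was the lowest in 23 of 31 signals. The D8 libraries lay below all D1 libraries in 6 members (17.1%), where 4.98% of all tested transcripts and 3.27% of the other 245 did, and below all D3 libraries in 5 members (14.3%), where 4.60% of all tested transcripts did. The D8 libraries lay above all D1 libraries in 1 member, ENSCINT00000011693, or 2.86%, where 3.47% of all did. These counts changed without replicate 3 of D1, D3 and D8, an alternative added after the data were seen. D8 then held the lowest mean in 21 members (60.0%), in 73.9% of the other 245 and in 37.8% of all transcripts with a D0 mean of at least 1 CPM. The D8 libraries then lay below all D1 libraries in 21 members (60.0%), where 57.1% of the other 245 and 26.8% of all tested transcripts did, and below all D3 libraries in 13 members (37.1%), where 43.3% of the other 245 and 23.2% of all did. The share of members with D8 lowest was thus above that of the other falling transcripts with these libraries and below it without them. The other falling transcripts met the same limit below D0, which all tested transcripts did not have to meet. In the edgeR fit of all libraries no member passed the adjusted threshold between stages.

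The member with the lowest p for a lower level at D8 than at D1 was ENSCINT00000036652. Its libraries held 26.8, 26.3 and 26.5 CPM at D0, 25.5, 21.8 and 20.9 at D1, 18.0, 18.3 and 23.8 at D3, 15.3, 15.6 and 17.8 at D8, and 22.8, 27.4 and 42.4 in NR. All 3 D8 libraries were below all D1 and all D3 libraries. The log2 fold change of D8 against D1 was -0.48 ± 0.221 (SE), with an unadjusted p of 0.0476 and an adjusted p of 1.00 in edgeR, and its near-identical partner ENSCINT00000014171 gave the same signal.

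For a lower level at D8 than at D3, the lowest p was that of ENSCINT00000026523, with 16.6, 12.8 and 11.2 CPM at D8 against 16.1, 17.3 and 23.7 CPM at D3. These groups overlapped, and the log2 fold change was -0.49 ± 0.248 (SE; adjusted p = 1.00 in edgeR). For a lower level at D3 than at D1 it was ENSCINT00000019826, with 1.63, 1.69 and 4.01 CPM at D3 against 3.26, 3.78 and 3.19 CPM at D1, where D3 replicate 3 lay apart from the other D3 libraries. Its log2 fold change was -0.47 ± 0.446 (SE; adjusted p = 0.999 in edgeR).

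In the other direction, ENSCINT00000011768 had the lowest p at D3, with 27.0, 22.8 and 23.1 CPM at D3 against 21.2, 25.1 and 17.7 CPM at D1, and a log2 fold change of 0.19 ± 0.164 (SE). ENSCINT00000011920 had 14.5, 16.9 and 14.6 CPM at D8 against 6.75, 14.5 and 14.5 CPM at D3, a log2 fold change of 0.36 ± 0.256 (SE) in which D3 replicate 1, the shallowest library, was the low one. ENSCINT00000011693 was higher at D8 than at D1 by a log2 fold change of 0.27 ± 0.232 (SE). The adjusted p of these 3 was 0.999 to 1.00 in edgeR.

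Within the stages, the libraries numbered 3 did not sit with the others in the members. D3 replicate 3 was the highest of the 3 D3 libraries in 24 members and D8 replicate 3 the highest of the D8 libraries in 23, while D1 replicate 3 was the lowest of the D1 libraries in 19. Over all tested transcripts D3 replicate 3 was the highest of its group in 38.2%, D8 replicate 3 in 39.1%, and D1 replicate 3 the lowest in 39.0%. D3 replicate 3 was the highest of all 9 regrowth libraries in 12 of the 35 members and in 97 of the other 245 falling transcripts. It thus set the gap to D0 more often than any other library. Over the 15328 tested transcripts it was the highest of the 9 in 2516, which was also the most of any library. Without replicate 3 of D1, D3 and D8 the median log2 fold change of D8 against D1 over the members was -0.22, with 0 members called. Without the libraries numbered 3 of every group it was -0.21, with 1 member called, ENSCINT00000032931 (adjusted p = 0.00983 in edgeR; 528 of all tested transcripts passed in that fit, 3.42%). The part of these libraries in the differences between stages was not tested.

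**Figure D4:**
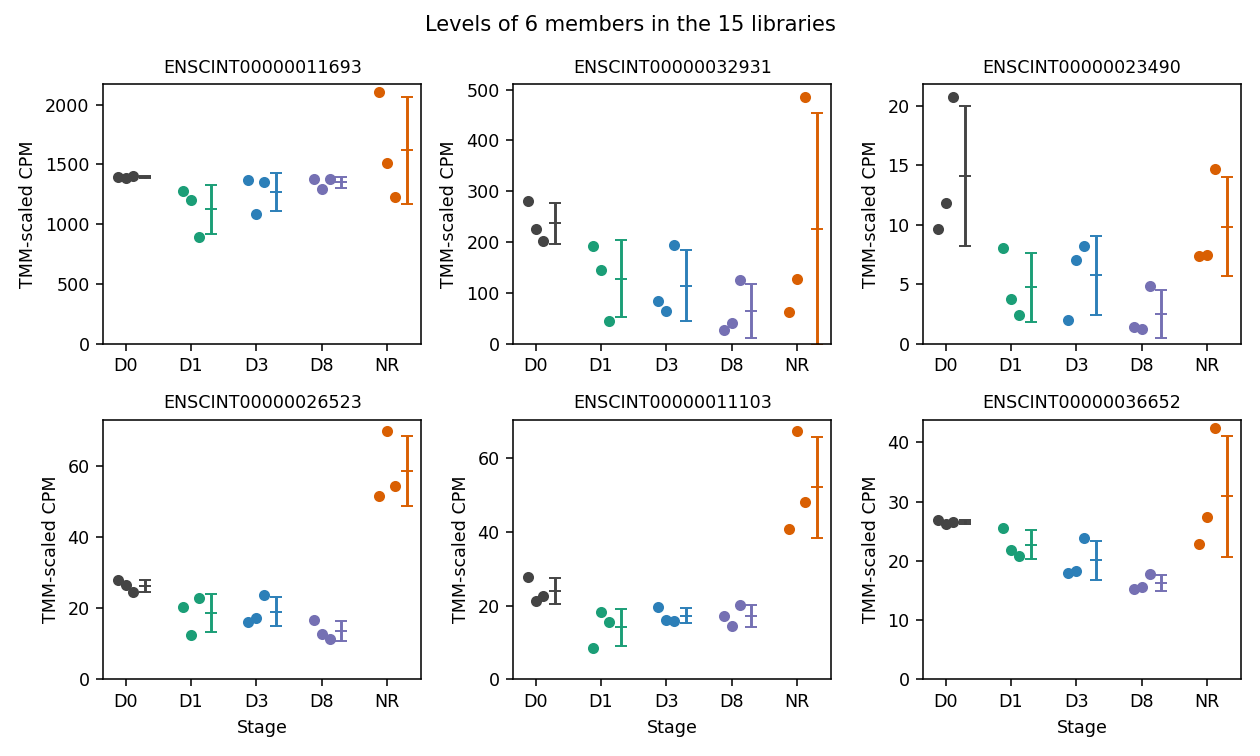
TMM-scaled CPM of 6 members in each library, with the mean and SD of each stage to the right of its 3 points (n = 3; bars are drawn from 0 upward only). ENSCINT00000026523 and ENSCINT00000011103 have all NR libraries above all D0 libraries, while in ENSCINT00000032931, ENSCINT00000023490 and ENSCINT00000036652 the NR libraries straddle or fall short of D0 and replicate 3 is the highest.

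The members divided by what the NR libraries did. In 10 members every NR library was at or above the lowest D0 library, in 13 members 2 of the NR libraries were, and in 12 members 1 was. Over the 13951 transcripts with a D0 mean of at least 1 CPM these numbers were 5555, 2511 and 2547. Every NR library was above every D0 library in 7 members (20.0%), where 19.7% of all tested transcripts were, and above every regrowth library in 11 (31.4%), where 9.31% of all were. In the other 24 members at least 1 NR library lay within or below the regrowth range. The rule also puts the NR mean above every regrowth library, so the 31.4% beside 9.31% is a description. That the NR mean reached the lowest D0 library in all 35 is fixed by the rule. It does not mean that NR matched D0: the NR mean was not above the D0 mean in 13 members, and the working name of a fall specific to regrowth goes further than the rule.

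The members in which NR was highest relative to D0 were ENSCINT00000026523 and ENSCINT00000011103. ENSCINT00000026523 had 27.8, 26.5 and 24.4 CPM at D0, 20.4, 12.5 and 22.8 at D1, and 51.4, 69.8 and 54.3 in NR, so that D0 lay between regrowth and NR with no overlap on either side. Its fitted log2 fold change of D0 against NR was -1.21 ± 0.247 (SE). ENSCINT00000011103 had 27.9, 21.2 and 22.5 CPM at D0, 8.54, 18.2 and 15.5 at D1, 19.6, 16.2 and 16.0 at D3, 17.2, 14.4 and 20.3 at D8, and 40.7, 67.4 and 48.2 in NR. Again all NR libraries were above D0 and all regrowth libraries below it, and the log2 fold change of D0 against NR was -1.18 ± 0.271 (SE).

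At the other end, ENSCINT00000012345 and ENSCINT00000023490 had NR means below their D0 means. ENSCINT00000012345 had 6.30, 3.79 and 8.63 CPM at D0, 2.43, 3.78 and 3.54 at D1, 2.50, 3.44 and 3.19 at D3, 2.27, 2.07 and 2.65 at D8, and 3.42, 6.27 and 1.99 in NR. Only NR replicate 2 was above its lowest D0 library, and NR replicate 3 was below all regrowth libraries. Over the 35 members the NR mean was above the D0 mean in 22.

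NR replicate 3 carried many of the members. It was the highest NR library in 22 of the 35, where replicates 1 and 2 were the highest in 6 and 7, and over all tested transcripts it was the highest in 33.8%. It lay above every D0 library in 24 members (68.6%), where 36.3% of all tested transcripts did. Replicates 1 and 2 did so in 15 members each (42.9%), where 35.7% and 38.0% of all did. The rule used the NR mean, which 1 high library can lift, so the members' shares in NR are a description. In 8 members NR replicate 3 alone reached the lowest D0 library, while replicate 1 alone and replicate 2 alone did so in 2 members each. The same was not counted by library over all transcripts. NR replicate 3 had the fewest counts of the NR libraries (10573547) and the lowest TMM factor (0.665). The median log2 ratio to D0 was 0.50 in NR replicate 3, -0.02 in replicate 1 and -0.08 in replicate 2. In the trio of constant-ratio members, ENSCINT00000013850 had 53.0, 59.5 and 46.7 CPM at D0 and 40.2, 28.0 and 139 CPM in NR, so NR replicates 1 and 2 were within or below the 31.9 to 43.7 CPM of its regrowth libraries. Without NR replicate 3 the rule found 26 transcripts, of which 19 were among the 35 members (54.3%).

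Set against NR in edgeR, the mean of D1, D3 and D8 was lower in 22 members (62.9%), where 15.0% of all tested transcripts were called lower, and D0 was lower in 7 members and higher in 0, where 14.7% were called lower and 13.6% higher. The rule used both contrasts. Members were called higher at D0 than in NR in 3 of the alternatives. Without NR replicate 3, 3 members were higher and 7 lower, where 11.8% of all were higher; the 3 were the constant-ratio trio ENSCINT00000013850, ENSCINT00000024750 and ENSCINT00000024749. Without the libraries numbered 3 of every group, 4 were higher and 5 lower, where 14.8% of all were higher; the 4 were the trio and ENSCINT00000032931. With library totals alone 2 were higher and 1 lower, where 29.3% of all were higher; the 2 were ENSCINT00000018013 and ENSCINT00000003405, named after their values were seen. The medians over the members were -0.96 for the mean of D1, D3 and D8 against NR and -0.27 for D0 against NR, beside 0.02 and -0.04 over all tested transcripts. Both depend on scaling: with library totals alone the median for D0 against NR was 0.24 over the members and 0.44 over all tested transcripts.

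The size of the group also depends on scaling and on single libraries. With library totals in place of TMM the rule found 6 transcripts, of which 5 were members, and with size factors as in DESeq2 it found 42, of which 34 were members. Leaving out D3 replicate 3 gave 102 transcripts and leaving out D0 replicate 1, 2 or 3 gave 58, 113 or 83. Without replicate 3 of D1, D3 and D8 there were 169, which held all 35 members, and without the libraries numbered 3 of every group 253, which held 22 of them. With a D0, D1, D3 or D8 library left out, fewer libraries have to meet the condition of no overlap. That by itself tends to raise these numbers.

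**Figure D5:**
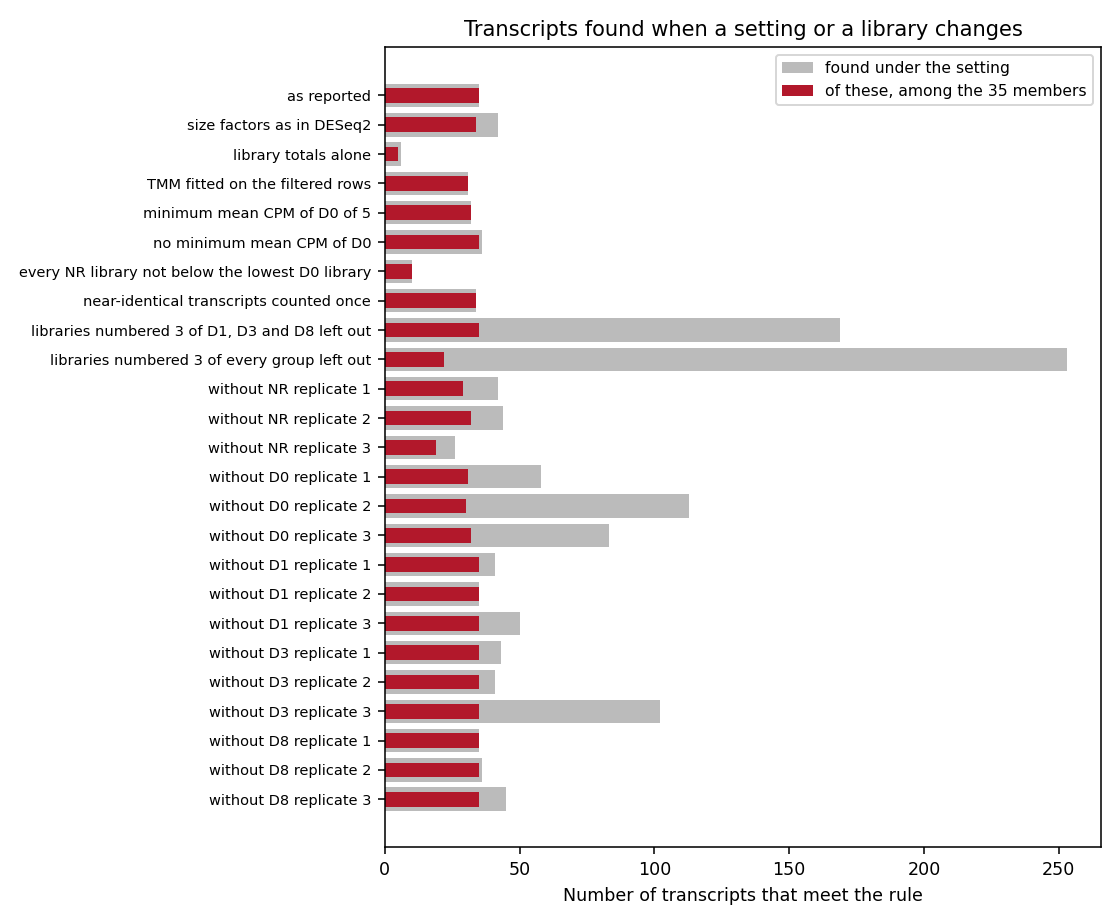
Grey bars give the number of transcripts that meet the rule when a setting is changed or a library left out, and red bars how many of these are among the 35 members. The number was lowest with library totals alone, at 6, and highest without the libraries numbered 3 of every group, at 253.

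The rule was also applied without 1 library at a time, with the TMM factors kept, and the library left out was then compared with the rest. Of the 102 transcripts chosen without D3 replicate 3, 35, or 34.3%, were below every D0 library in D3 replicate 3 too. Among all transcripts that met the limits on the D0 mean and on NR, 19.0% were. For the other 8 libraries of D1, D3 and D8 the share was 70.0% to 100%, beside 14.3% to 20.0% of all such transcripts. The transcripts that held were the 35 members each time, by construction. D0 replicates 1, 2 and 3 were also left out in turn. Then 31 of 58 (53.4%), 31 of 106 (29.2%) and 32 of 83 (38.6%) of the chosen transcripts were above every regrowth library in the D0 library left out. Among all transcripts that met the same limits, 6.52%, 9.16% and 10.6% were. The remaining libraries are shared with the choice, which by itself makes a left-out regrowth library likely to lie below D0, so these shares are a description and not a replication, and those of regrowth and D0 libraries cannot be set against each other.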

How the data were processed

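The authors deposited whole-number read counts for Ensembl transcript identifiers in 15 libraries, not normalized. TopHat, Bowtie and HTSeq are listed in the submitters' processing notes; which versions, settings, genome build, annotation and use of strand applied is not given in the sources used here. Counts were scaled by TMM in edgeR 4.0.16 (R 4.3.3) over all rows for the rule, and CPM computed from them. For tests, transcripts were filtered with edgeR's default minimum count of 10, which left 15328, and all 15 libraries entered 1 quasi-likelihood fit with group means (glmQLFit with robust estimation, glmQLFTest). P-values were two-sided and adjusted by the Benjamini-Hochberg method over all tested transcripts, with a threshold of 0.05. The fit was tested on simulated data. Library totals were 7039611 to 33413013 counts of reads, not of molecules.

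The members, lists and alternatives were chosen with earlier results of these data known. Named members were, by rule, the 2 with the highest D0 mean, the 2 deepest and 2 smallest falls, the 2 highest and 2 lowest in NR over D0, the lowest p in each direction between stages, and those nearest each limit. Alternatives were DESeq2 1.42.0, limma voom (limma 3.58.1), other size factors and filters, a replicate block, near-identical transcripts counted once, and libraries left out.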

Additional observations from a re-analysis of the deposited data

How the results depend on the processing

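The numbers of members called between stages in edgeR were 0 in all alternatives run for D3 against D1 and D8 against D3; for D8 against D1 it was 1 without the libraries numbered 3 of every group. The number of members was 6 with library totals alone, 10 where every NR library had to reach the lowest D0 library, 169 without replicate 3 of D1, D3 and D8, 253 without the libraries numbered 3 of every group, and 26 to 113 when 1 library at a time was left out. Library totals alone gave medians of -0.38 (D1 against D0), -0.46 (D8 against D0), -0.42 (mean of D1, D3 and D8 against D0), -0.30 (the same mean against NR, with 9 called, 1 higher and 8 lower, where 41.7% and 5.09% of all tested transcripts were) and 0.24 (D0 against NR, with 3 called, 2 higher and 1 lower, where 29.3% and 6.43% of all were); the scaling of the NR libraries differs by construction. DESeq2 called 1 member lower for D1, 5 for D8 and 5 for the mean of the 3 stages against D0, where 0.274%, 0.992% and 0.966% of all were. limma voom gave medians of -0.60 for the mean of the stages and -0.0325 for D0, both against NR. Without replicate 3 of D1, D3 and D8, 1 (D3), 5 (D8) and 5 (mean) members were called lower against D0, where 0.791%, 3.13% and 3.00% of all were, with medians of -0.61 for D3 against D0 and -0.18 for D3 against D1. Without the libraries numbered 3 of every group the calls were 3, 8 and 10, all lower, where 2.97%, 6.35% and 5.59% of all were, with medians of -0.43 for D1 against D0, -0.59 for D3 against D0, -0.16 for D3 against D1 and -0.72 for the mean of the stages against NR. Leaving out 1 library at a time gave 0 to 2 calls for the mean of the stages against D0. The 2 calls came without D3 replicate 3, both lower, where 1.09% of all were. The medians were -0.57 to -0.52 for the mean of the stages against D0 and -0.57 to -0.42 for D3 against D0. They were -0.98 to -0.70 for the mean of the stages against NR, and -0.43 to -0.0328 for D0 against NR. The cause was not tested. No member named by rule for its level, fall, NR ratio or lowest p changed direction in the comparison followed for it. Others changed direction for D0 against NR between the edgeR fit reported above and an alternative. The trio ENSCINT00000013850, ENSCINT00000024750 and ENSCINT00000024749 had log2 fold changes of -0.43, -0.47 and -0.37, but 0.60, 0.60 and 0.64 without NR replicate 3. ENSCINT00000018013 had -0.02, but 0.46 with library totals alone. ENSCINT00000011103 missed the threshold for D0 against NR in 1 of 25, with library totals alone (adjusted p = 0.0838 in edgeR). The 25 ran from 0.000461 in DESeq2 to that value. ENSCINT00000023490 and ENSCINT00000032931 passed the threshold for the mean of the stages against D0 in 3 of 25 and 1 of 26. Little sign of pairing by replicate number was seen, though these counts do not settle it. Of 30 same-numbered pairs, 5 had deviations that correlated above 0.1. The correlations ran from -0.592 (D1 and D8, number 3) to 0.302 (D3 and D8, number 3). A library correlated best with its own number in 14 of 60 cases. With the replicate block, 0 members were called between stages or against D0, as were 0 of all tested transcripts. Against NR, 18 members were called lower for the mean of the stages and 5 for D0, where 13.4% and 13.2% of all were. The lowest members had as few as 3 counts in a library.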
